A study of Homo sapiens with 6 samples.

Results

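The TGF-β pathway genes described here are 10 of the 30327 genes in the count table of an SK-BR-3 experiment, and all 10 had enough reads to be tested. They are the receptors TGFBR1 and TGFBR2, the signal carriers SMAD1, SMAD2 and SMAD3, the shared partner SMAD4, the inhibitors SMAD6 and SMAD7, and the co-repressors SKIL and TGIF1. The genes were taken by symbol, and the set was chosen by the lower reads of SMAD3 in the comparison reported here. The fold changes of the members are therefore given as a description. Whether each passed a limit on adjusted p is stated, without p-values and not as support. SK-BR-3 is an established breast cancer cell line that overexpresses HER2. RNA sequencing covered 3 libraries with a nontargeting siRNA as the control (si_NC) and 3 libraries in which an siRNA was directed at GRB2 (si_GRB2). GRB2 is an adaptor protein that links receptor tyrosine kinases to RAS. A single siRNA against GRB2 is given in the study's methods, and both groups are otherwise the same line. The descriptions of the treated libraries name si_GRB2, whereas their titles, genotype label and the design text name GRB2 overexpression.

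In TGF-β signalling, a ligand binds the type II receptor TGFBR2, which activates the type I receptor TGFBR1. The type I receptor phosphorylates SMAD2 and SMAD3, which join SMAD4, enter the nucleus and regulate genes together with other factors. Bone morphogenetic proteins (BMPs) act through related receptors on SMAD1, SMAD5 and SMAD9. SMAD6 and SMAD7 hold this signalling back, and SKIL and TGIF1 repress transcription at SMAD-bound genes. In breast epithelium the pathway is known for growth arrest in normal cells and for invasion and epithelial-mesenchymal transition in tumor cells.

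The labels were checked on GRB2, which had 124 to 130 CPM in si_NC and 27.8 to 29.6 CPM in si_GRB2. CPM are reads per 1000000 counted reads after scaling of library sizes by edgeR's TMM method. The direction of the comparison therefore follows the descriptions and goes against the titles. Reads counted on genes numbered 24810378 to 28532480 per library. Of 7 markers fixed for this line, 6 were tested, while CDH1 had 9 reads over the 6 libraries. ERBB2, which encodes HER2, had 3415 to 3557 CPM in si_NC and rose in si_GRB2, where it had 3988 to 4229 CPM (adjusted p = 1.14e-06, edgeR), whereas KRT8, KRT18, KRT19, EPCAM and GRB7 were lower in every si_GRB2 library. The summed level of the 7 markers was 17367 to 17755 CPM in si_NC and 14522 to 15111 CPM in si_GRB2. Markers of other cell types were low, with 4.06 to 6.27 CPM in si_NC and 4.57 to 5.21 CPM in si_GRB2 summed over 6 fibroblast genes, and at most 2.46 CPM over 5 leukocyte genes. The 3 endothelial markers summed to 28.9 to 30.9 CPM in si_NC and 17.4 to 21.4 CPM in si_GRB2, nearly all of it CDH5, while PECAM1 had 3 reads in all. The part of these shifts in the values of the TGF-β genes was not tested. The labels do not say whether the libraries came from separate cultures, so the tests measure the spread between these libraries.

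Of the 10 genes, 5 passed an adjusted p under 0.05 in edgeR's quasi-likelihood test, 3 of them lower (SMAD3, SMAD6 and TGIF1) and 2 higher (SMAD2 and TGFBR1) in si_GRB2. Over all 15801 genes tested, the same limit called 30.6%, with 15.5% lower and 15.2% higher. SMAD3 alone also had a fold change below the inverse of 1.5 with an adjusted p under 0.01, as did 1.69% of all genes tested in this direction. The libraries of the groups did not overlap in 5 of the 10 genes, against 42.3% of all genes tested. The median log2 fold change was −0.007 over the 10 genes and 0.0019 over all genes tested. Because these values chose the set, nothing is read from its counts. In bulk RNA, fewer cells that express a gene and less RNA per cell cannot be told apart.

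**Figure D1:**
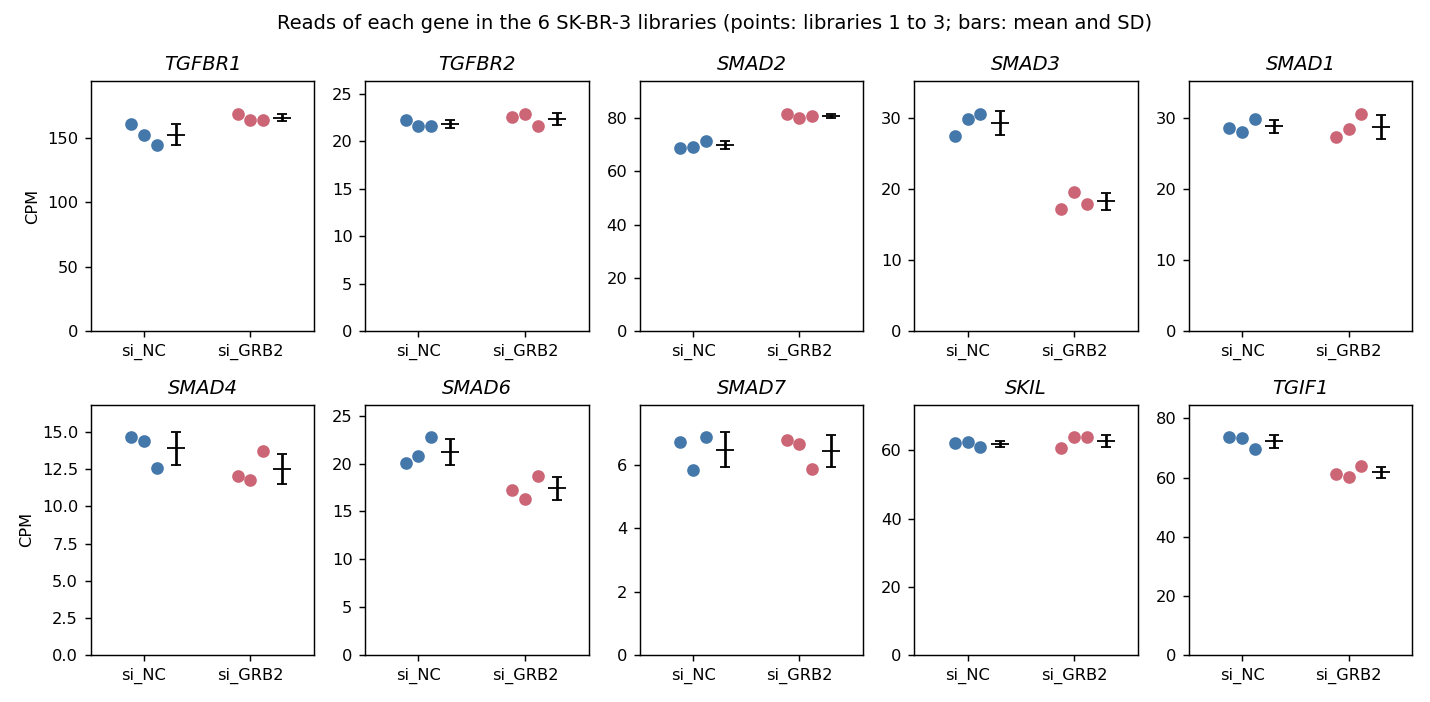
Reads of the 10 genes in CPM (y axis from 0, a separate scale per gene) in each si_NC (blue) and si_GRB2 (red) library, with the mean and SD (n = 3) beside the points. The SMAD3 libraries sit at 27.4 to 30.6 CPM in si_NC and at 17.2 to 19.6 CPM in si_GRB2.

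SMAD3 (ENSG00000166949.17, plus strand of chromosome 15 of GRCh38 from 67063763 to 67195173) carries the TGF-β and activin signal and binds DNA directly. SMAD3 was counted at 27.4, 29.9 and 30.6 CPM in si_NC and at 17.2, 19.6 and 17.9 CPM in si_GRB2. The groups did not overlap, and the gap between the groups was wider than the range within either. Mean levels were 29.3 ± 1.68 CPM and 18.2 ± 1.26 CPM (SD, n = 3). This gave a log2 fold change of −0.68 with a standard error of 0.06 and a 95% interval from −0.81 to −0.55, so that SMAD3 reads fell by 37.6%. Of all genes tested, 2.29% had a log2 fold change as low or lower. In the authors' FPKM, a value per length of gene, SMAD3 had means of 2.36 ± 0.211 and 1.51 ± 0.14 (SD, n = 3). These values rest on 3812 reads over the 6 libraries.

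SMAD2 (ENSG00000175387.16, minus strand of chromosome 18 from 47808957 to 47931146) is the other carrier of the TGF-β and activin signal. It had 69.0, 69.2 and 71.6 CPM in si_NC and 81.7, 80.0 and 80.9 CPM in si_GRB2. SMAD2 was thus higher in every si_GRB2 library, opposite to SMAD3, and its libraries lay close together within each group. The log2 fold change was 0.21 (standard error 0.04, 95% interval 0.14 to 0.29). The difference did not pass with limma on log2 FPKM, where the log2 fold change was 0.16 to 0.24.

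SMAD1 (ENSG00000170365.10, chromosome 4 from 145481194 to 145559176) carries BMP signals. It had 28.7, 28.1 and 29.9 CPM in si_NC and 27.3, 28.5 and 30.7 CPM in si_GRB2. The groups overlapped fully, with a log2 fold change of −0.0035 (95% interval −0.12 to 0.11), whose sign depended on the setting.

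The shift between SMAD3 and SMAD2 was followed within each library, a measure that does not depend on the scaling of libraries. For every 100 reads of SMAD2 there were 39.7, 43.2 and 42.7 reads of SMAD3 in si_NC, and 21.0, 24.5 and 22.2 in si_GRB2. The means were 41.9 ± 1.88 and 22.6 ± 1.79 (SD, n = 3), and the groups did not overlap. Because the fall of SMAD3 chose the set, this ratio is a description and gives no separate support. The reads of both genes together came to 99.2 ± 2.92 CPM in si_NC and 99.1 ± 0.462 CPM in si_GRB2 (SD, n = 3). The sum of reads hence differed by less than its spread between libraries, while its make-up changed. It takes no account of transcript length, so it is not a total of transcripts. In FPKM, SMAD3 was above SMAD2 in every si_NC library, at a ratio of 1.46 to 1.58, and below it in every si_GRB2 library, at 0.767 to 0.892. That order depends on the length used for SMAD2. Per kilobase of the MANE Select transcript, the single reference transcript of each gene, SMAD3 stayed above SMAD2 in all libraries, at 2.13 to 2.31 in si_NC and 1.13 to 1.31 in si_GRB2. On this scale SMAD3 had means of 4.53 CPM per kilobase in si_NC and 2.82 in si_GRB2. SMAD2 had 2.02 and 2.34, so SMAD3 lost more than SMAD2 gained.

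SMAD4 (ENSG00000141646.14, chromosome 18 from 51028528 to 51085045) is the partner of all signal-carrying SMADs. It had 14.7, 14.4 and 12.6 CPM in si_NC and 12.1, 11.8 and 13.7 CPM in si_GRB2. The third library of each group lay within the range of the other group, and SMAD4 did not pass the limit. Its log2 fold change was −0.15 (standard error 0.08), with a 95% interval from −0.33 to 0.02 that leaves a fall of this size undecided. A protein-coding gene on the same strand overlaps SMAD4, with reads equal to 3.84% of its own.

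Of the inhibitory SMADs, SMAD6 (ENSG00000137834.15, plus strand of chromosome 15 from 66702236 to 66782849) acts mainly against BMP signals. It had 20.1, 20.8 and 22.7 CPM in si_NC and 17.2, 16.3 and 18.7 CPM in si_GRB2. Each si_GRB2 library was lower than each si_NC library, but the nearest libraries were closer to each other than the libraries within a group. The log2 fold change was −0.29 (standard error 0.07, 95% interval −0.43 to −0.14). With limma on log2 FPKM, SMAD6 did not pass the limit, at −0.23 to −0.16.

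SMAD7 (ENSG00000101665.10, minus strand of chromosome 18 from 48919853 to 48950965) blocks the TGF-β receptor and is itself induced by TGF-β. It had 6.74, 5.85 and 6.88 CPM in si_NC and 6.80, 6.66 and 5.89 CPM in si_GRB2. The groups overlapped, and the log2 fold change was −0.01. SMAD7 had the fewest reads of the 10 genes, 1034 in all, and its 95% interval from −0.25 to 0.23 was the widest. A change of the size seen in SMAD3 lies outside this interval, whereas one of the size seen in TGIF1 lies within it.

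The receptors were measured next. TGFBR1 (ENSG00000106799.13, chromosome 9 from 99104038 to 99154192) had 161, 152 and 144 CPM in si_NC and 169, 164 and 164 CPM in si_GRB2. The si_GRB2 libraries were all higher, though the si_NC libraries spread more widely than the distance between the groups. The log2 fold change was 0.12 (standard error 0.04, 95% interval 0.04 to 0.20). This rise no longer passed without si_NC replicate 2 (0.11), without si_NC replicate 3 (0.07) or without si_GRB2 replicate 1 (0.11). TGFBR2 (ENSG00000163513.19, chromosome 3 from 30606601 to 30694142) had 22.3, 21.6 and 21.6 CPM in si_NC and 22.5, 22.9 and 21.6 CPM in si_GRB2. The groups overlapped, with a log2 fold change of 0.03 (95% interval −0.08 to 0.15). For every 100 reads of TGFBR1 there were 13.86 to 15.01 reads of TGFBR2 in si_NC and 13.17 to 13.97 in si_GRB2, ranges that overlap.

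TGIF1 (ENSG00000177426.22, chromosome 18 from 3411608 to 3459978), a homeodomain co-repressor of SMAD2 and SMAD3, had 73.6, 73.4 and 69.6 CPM in si_NC and 61.1, 60.3 and 63.8 CPM in si_GRB2. Every si_GRB2 library was lower. The log2 fold change was −0.23 (standard error 0.04, 95% interval −0.31 to −0.14), and it lost the limit with limma on log2 FPKM of all genes (−0.18 to −0.16). SKIL (ENSG00000136603.14, chromosome 3 from 170357342 to 170396835), which encodes SnoN, is a SMAD co-repressor that TGF-β induces. It had 62.3, 62.3 and 61.0 CPM in si_NC and 60.8, 63.8 and 63.8 CPM in si_GRB2. The groups overlapped, with a log2 fold change of 0.02 (95% interval −0.06 to 0.10). The co-repressors thus gave different results, and the difference between them was not tested.

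**Figure D2:**
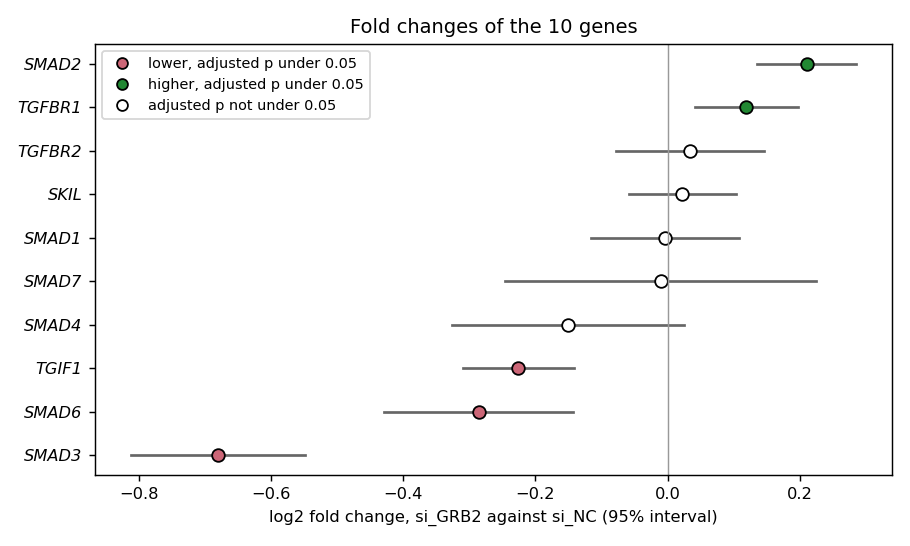
Log2 fold changes of the 10 genes (x axis, si_GRB2 against si_NC) with 95% intervals from edgeR, filled where the adjusted p is under 0.05. SMAD3, by whose fall the set was chosen, lies at −0.68, and the others lie between −0.29 and 0.21.

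Levels per length were compared among the genes in the si_NC libraries. TGFBR1 was highest at 17.9 ± 0.379 FPKM, followed by TGIF1 at 7.14 ± 0.0681, SKIL at 6.39 ± 0.156 and SMAD1 at 3.27 ± 0.214 (SD, n = 3). TGFBR2 (2.56 ± 0.07) and SMAD3 (2.36 ± 0.211) had overlapping ranges, as did SMAD3 and SMAD6 (1.99 ± 0.203). SMAD2 followed at 1.54 ± 0.0889, SMAD7 at 1.32 ± 0.14 and SMAD4 at 0.85 ± 0.0436 FPKM (SD, n = 3). The length by which the FPKM were divided is not given in the sources used here. The counts per FPKM correspond to 1.22 times the merged length of all annotated exons for 7 of the 10 genes and to 0.816 to 1.17 times for SMAD4, TGFBR1 and SKIL, and these values mix the length with the read total used. Merged exons exceed the MANE Select transcript by 1.05 times for SMAD2 and by 2.56 times for TGIF1. Per kilobase of MANE Select transcript, TGFBR1 (23.5 ± 1.28) and TGIF1 (22.7 ± 0.706 CPM per kilobase) had overlapping ranges, SMAD1 moved above SKIL, and SMAD6 moved above TGFBR2 and SMAD3. SMAD2, SMAD7 and SMAD4 were the lowest on both scales. The reference transcript of SMAD2 has 34626 bases, and which of its transcripts the cells used was not tested.

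**Figure D3:**
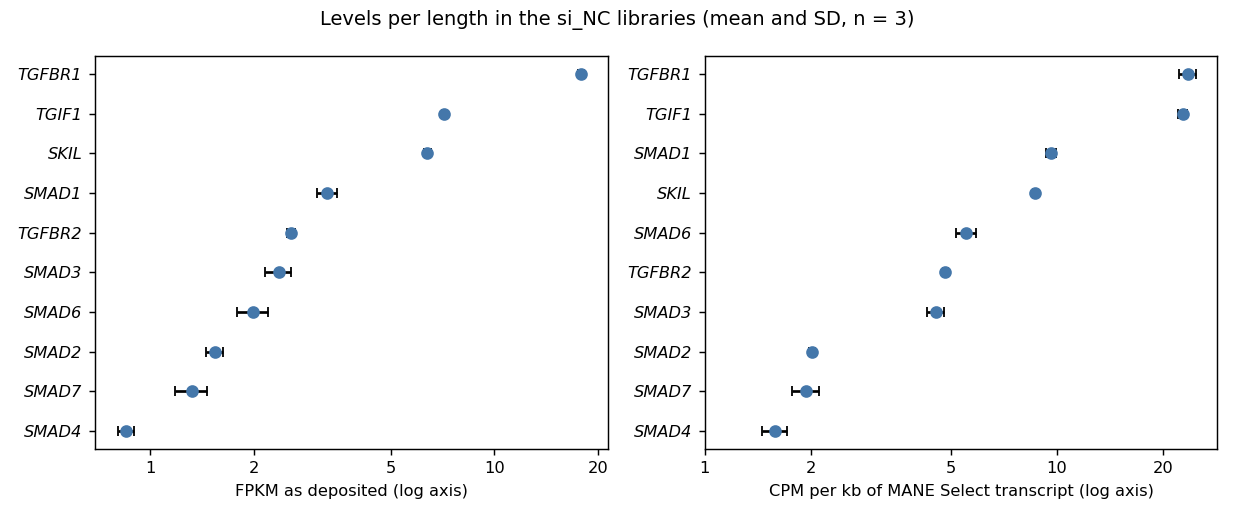
Levels in the si_NC libraries (mean and SD, n = 3) as deposited FPKM (left) and as CPM per kilobase of MANE Select transcript (right), on log axes and sorted by level. TGFBR1 leads on both scales, and SMAD4 at 0.85 FPKM is lowest on both.

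SMAD3 and SMAD6 are neighbors on chromosome 15, with 280914 bases between the end of SMAD6 and the start of SMAD3. The genes around them were therefore examined, a choice made after the values of both had been seen. Within 1000000 bases of SMAD3, 19 genes were tested. SMAD3, SMAD6 and the ribosomal protein gene RPL4 fell, 0 genes rose, and 16 did not pass the limit, against 15.5% lower and 15.2% higher over all genes tested. Because SMAD3 and SMAD6 prompted the choice, nothing is read from this count. At an unadjusted p under 0.05, 1 gene was higher (MAP2K1, log2 fold change 0.11), and DESeq2 called 0 higher. For RPL4 the fall was −0.23 on the log2 scale, with an adjusted p of 2.17e-06 in edgeR. The study counted uniquely mapped reads, and the part of processed pseudogene copies in this value was not tested. AAGAB, which lies 5.49 kb beyond SMAD3, had 54.0 CPM in si_NC and 52.8 CPM in si_GRB2 (log2 fold change −0.03, 95% interval −0.13 to 0.06). Of the genes between SMAD6 and SMAD3, 0 had enough reads to be tested.

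**Figure D4:**
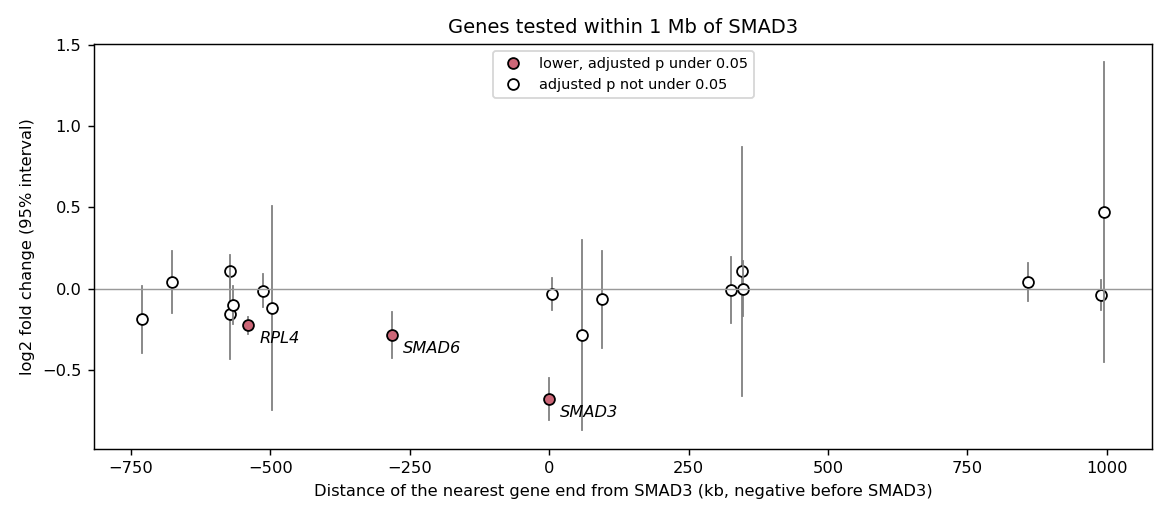
Log2 fold changes with 95% intervals (y axis) of the 19 genes tested within 1 Mb of SMAD3, by distance in kb from SMAD3 (x axis, SMAD3 at 0). Filled points, SMAD3, SMAD6 and RPL4, passed an adjusted p under 0.05.

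The 250 bases before the MANE Select start sites are shown for SMAD3 and SMAD6, the neighbors that fell, for SMAD2, which rose, and for SMAD7, the feedback inhibitor that did not pass the limit. They are from RefSeq (GRCh38.p14), 5′ to 3′ on the strand of the gene. SMAD3 lies at chr15:67065352-67065601 and SMAD6 at chr15:66701986-66702235, both on the plus strand. SMAD2 lies at chr18:47930660-47930909 and SMAD7 at chr18:48950966-48951215, both on the minus strand. Capitals mark 3 motifs that the DNA-binding domain of SMAD proteins is known to contact, searched on both strands: CAGAC, the palindrome GTCTAGAC and GGCGC.
SMAD3: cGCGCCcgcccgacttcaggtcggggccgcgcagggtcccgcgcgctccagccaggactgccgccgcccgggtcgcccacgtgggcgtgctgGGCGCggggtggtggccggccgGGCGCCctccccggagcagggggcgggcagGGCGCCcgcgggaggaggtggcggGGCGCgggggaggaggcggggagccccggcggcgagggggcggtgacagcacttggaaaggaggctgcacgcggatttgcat
SMAD6: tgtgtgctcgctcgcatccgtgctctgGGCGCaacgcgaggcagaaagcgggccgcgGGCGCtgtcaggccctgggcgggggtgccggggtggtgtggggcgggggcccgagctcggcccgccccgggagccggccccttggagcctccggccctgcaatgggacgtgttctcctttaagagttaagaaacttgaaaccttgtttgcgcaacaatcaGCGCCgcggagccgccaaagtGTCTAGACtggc
SMAD2: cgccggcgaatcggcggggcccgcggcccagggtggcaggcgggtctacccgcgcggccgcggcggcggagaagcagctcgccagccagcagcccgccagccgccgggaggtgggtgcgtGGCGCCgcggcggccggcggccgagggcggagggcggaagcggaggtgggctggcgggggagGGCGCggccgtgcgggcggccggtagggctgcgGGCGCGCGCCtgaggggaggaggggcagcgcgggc
SMAD7: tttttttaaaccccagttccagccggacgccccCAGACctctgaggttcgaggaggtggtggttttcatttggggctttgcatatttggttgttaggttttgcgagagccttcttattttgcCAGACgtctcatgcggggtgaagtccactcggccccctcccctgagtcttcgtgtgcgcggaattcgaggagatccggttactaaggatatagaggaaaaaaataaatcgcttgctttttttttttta

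The SMAD3 stretch holds 7 matches to GGCGC and 0 to CAGAC, the SMAD2 stretch 5 and 0, and the SMAD7 stretch 0 and 2. Matches on opposite strands that share bases were counted separately. SMAD6 holds 3 matches to GGCGC and 1 to GTCTAGAC just before its start site. Among stretches of the same length before 35116 RefSeq start sites, 44.5% hold GGCGC, 38% hold CAGAC and 0.182% (64 stretches) hold GTCTAGAC. The C and G share was 80.8% for SMAD3, 84.4% for SMAD2, 68% for SMAD6 and 48% for SMAD7. None of the other members holds GTCTAGAC in this window, and TGFBR2 and TGIF1 hold 0 matches to any of the 3 motifs. SMAD1, SMAD4 and SKIL, which did not pass the limit, hold 3 matches to GGCGC each, as many as SMAD6. TGFBR1 holds 1 match to GGCGC, and TGFBR1 and SKIL hold 1 match to CAGAC each. The stretches shown were picked by the fold changes, so nothing is read from their match counts.

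Across the 6 libraries, the log2 CPM of SMAD3 was compared with that of 8888 protein-coding genes with a mean of at least 10 CPM. The most similar were FAM13A, ATF5, FKBP10, MRE11 and YDJC, with Pearson correlations of 0.995 to 0.999 over 6 libraries in 2 groups. Since 679 genes reached 0.95, such values are common in this design. FAM13A had 12.4, 13.9 and 13.8 CPM in si_NC and 6.44, 7.61 and 6.87 CPM in si_GRB2, a larger drop than that of SMAD3 (log2 fold change −0.94, 95% interval −1.13 to −0.74). Among the members with at least 10 CPM, the correlation with SMAD3 was 0.895 for TGIF1, 0.858 for SMAD6, 0.515 for SMAD4, 0.0867 for SMAD1, −0.315 for SKIL, −0.488 for TGFBR2, −0.869 for TGFBR1 and −0.958 for SMAD2. The 4 values farthest from 0 belong to the members that differed between the groups, so they restate that difference.

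The other genes of the pathway were taken from 7 lists of 118 genes, of which 88 were tested. In edgeR's quasi-likelihood test, 23 fell and 15 rose at an adjusted p under 0.05, with a median log2 fold change of −0.02. These were 26.1% lower and 17% higher, against 15.5% and 15.2% of all genes tested, and DESeq2 called 20 lower and 10 higher. Over all genes, DESeq2 called 1920 lower and 1867 higher, where edgeR called 2442 and 2396. Among targets of TGF-β, 10 of 20 tested genes fell, 1 rose and 9 did not pass the limit, with a median of −0.22. That is 50% lower and 5% higher, beside the 15.5% and 15.2% of all genes, and DESeq2 called 8 lower and 1 higher. The 7 lists were chosen with earlier results of these data known, so their shares are given as a description. ACTA2 (smooth muscle actin) had a log2 fold change of −1.31 from few reads, CCN2 of −0.73, CDKN1A (p21) of −0.72, TGFBI of −0.67 and IL11 of −0.66. TPM1 (tropomyosin), at 522 ± 15.3 CPM in si_NC and 365 ± 10.9 CPM in si_GRB2 (SD, n = 3), had −0.52. The others that fell were GADD45B, MMP9, PDGFB and TAGLN (−0.58 to −0.27), and TSC22D1 rose (0.15). These 5 were named after their values were seen. DESeq2 did not call IL11, which had 234 reads over the 6 libraries (adjusted p = 0.105), or MMP9 (adjusted p = 0.125). PMEPA1, the target with the highest FPKM, stood at 0.03 on the log2 scale, with an adjusted p of 0.569 in edgeR. Several of these genes also respond to other signals, and the part of SMAD3 in their values was not tested. A gene on the opposite strand overlaps ACTA2 with 187% of its reads. The study's methods describe libraries that allow strand-specific sequencing, but the use of strand in counting is not given in the sources used here.

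Of 12 ligands tested, 5 fell and 0 rose, where 15.5% of all genes tested were lower and 15.2% higher. At an unadjusted p under 0.05, 5 ligands were lower and 1 higher, a limit for which the share of all genes is not given here. DESeq2 called 4 lower and 0 higher, and did not call GDF15 (adjusted p = 0.105). Those that fell were GDF11 (−0.87), TGFB2 (−0.59), INHA (−0.45), GDF15 (−0.40) and INHBB (−0.34). INHBB, an activin subunit, had 128 ± 2.52 CPM in si_NC and 101 ± 1.58 CPM in si_GRB2 (SD, n = 3). Reads over the 6 libraries were few for GDF11 (324), GDF15 (686) and INHA (807). BMP7 had 0.08 (adjusted p = 0.0503, edgeR). Of 9 tested genes of latency and antagonists, 33.3% rose and 22.2% fell, beside 15.2% and 15.5% of all genes. LTBP1, which holds latent TGF-β in the matrix, rose by 0.46 on the log2 scale, with FURIN (0.21) and ITGAV (0.16). ITGB6 (−0.24) and LTBP3 (−0.20) fell. Of 10 other receptors, ACVR2B (−0.69), BMPR1B (−0.62, from 717 reads over the 6 libraries) and the decoy receptor BAMBI (−0.37) fell. ACVR2A (0.31), BMPR1A (0.22) and ACVR1B (0.15) rose. These receptors were 30% in each direction, beside 15.5% lower and 15.2% higher over all genes. With DESeq2, BMPR1A alone of the receptors that rose was called (adjusted p = 0.0399), and ACVR2A (0.0909) and ACVR1B (0.121) were not. Of 15 other SMADs and cofactors, 3 rose (FOXH1 by 0.39, SKI by 0.14 and STRAP by 0.10) and 0 fell. That is 20% higher, near the 15.2% of all genes, and 0% lower, beside 15.5%. DESeq2 called STRAP alone (adjusted p = 0.0231, against 0.0763 for FOXH1 and 0.0741 for SKI), and the number lower was 0 also with DESeq2 and at an unadjusted p under 0.05. Of 15 ubiquitin ligases, deubiquitinases and phosphatases, NEDD4L (−0.35) and CTDSP1 (−0.23) fell and USP15 (0.29) and PPM1A (0.18) rose, 13.3% in each direction and near the share of all genes. Of 7 tested targets of BMP, ID4 (0.51), ID2 (0.15) and ID3 (0.12) rose and MSX2 (−0.18) fell. These were 42.9% higher and 14.3% lower, beside 15.2% and 15.5% of all genes. DESeq2 called 2 of the 7 targets higher and 1 lower. It did not call ID4 (adjusted p = 0.0922), which had 422 reads over the 6 libraries. FSTL3, ENG, FKBP1A, ITCH and ID1, each among the 2 highest of its list in FPKM, did not pass the limit (−0.03 to 0.08). INHA, GDF11, LTBP3, ACVR2A and FOXH1 each overlap a gene on the opposite strand whose reads are 344% to 3582% of their own.

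**Figure D5:**
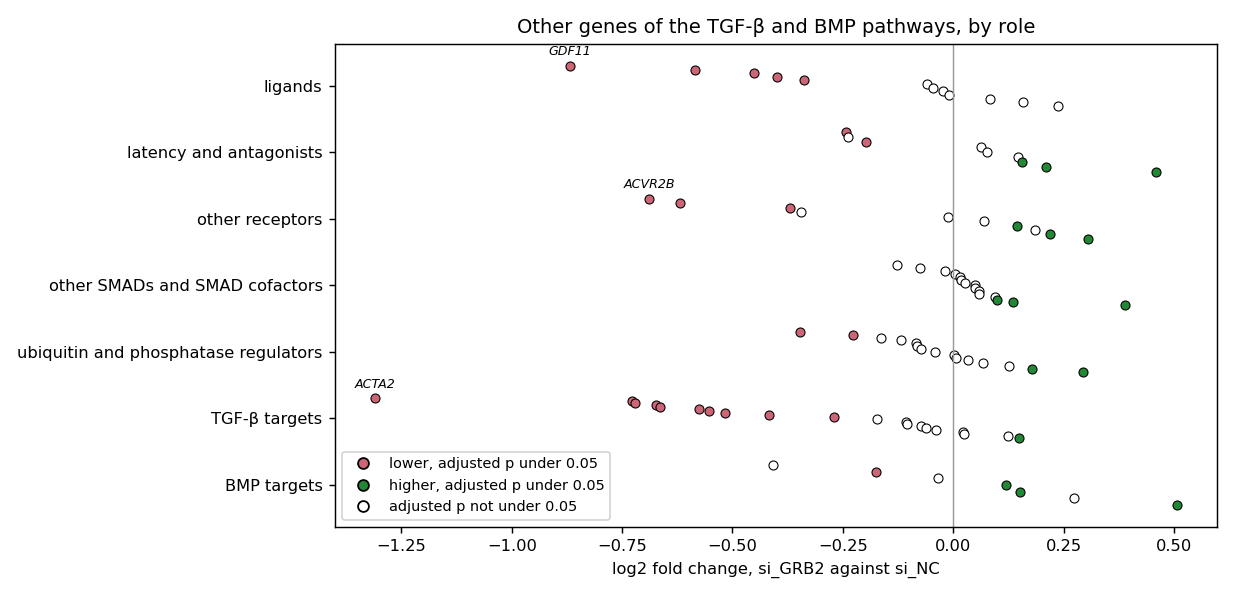
Log2 fold changes (x axis) of the 88 tested genes of 7 pathway lists (rows), filled where the adjusted p is under 0.05, with the lowest gene labelled in lists where it also passed the fold limit. Of the TGF-β targets 10 lie among the lower filled points, and of the ligands 5.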

How the data were processed

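RNA of 3 si_NC and 3 si_GRB2 SK-BR-3 libraries was sequenced. The authors aligned reads to GRCh38 with HISAT2 and deposited counts of reads per gene (30327 genes) and FPKM (29912 genes). The counter's version and strand setting are not given in the sources used here. Counts were filtered with filterByExpr, scaled by TMM and tested over 15801 genes with edgeR 4.0.16 (quasi-likelihood, Benjamini-Hochberg, si_NC and si_GRB2 only) in R 4.3.3. Alternatives were DESeq2 1.42.0, limma 3.58.1 on log2(FPKM + 1) or log2(FPKM + 0.1), scales that understate changes of low genes, other filters and scaling, a replicate block and leaving out each library. In data simulated for this comparison, over 15597 genes, 97% of 100 genes changed 1.5-fold and 100% of 100 genes changed 2-fold were recovered. Of the 208 genes called there, 5.29% were simulated as unchanged. The changed genes all had a mean of at least 5 CPM, and all other genes were simulated as unchanged. In the data, 4838 genes were called, and recovery with that many changes was not tested. Recovery of changes below 1.5-fold or in genes of lower CPM was not tested. CPM use library sizes after the filter, and sums over markers use all counted reads. Positions and lengths are from GENCODE 44. Members and lists were chosen with earlier results of these data known. The text names all members, per pathway list up to 5 genes past the limit with the largest fold change and the 2 highest in FPKM, and the 5 genes most correlated with SMAD3.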

Additional observations from a re-analysis of the deposited data

How the results depend on the processing

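Over 139 refits of the 10 genes under 14 alternatives, 116 kept direction and side of the limit, 11 no longer passed, 0 newly passed and 12 changed sign. The log2 fold change of SMAD3, by which the set was chosen, ranged from −0.74 to −0.42. The sign changed for SMAD1 with limma on log2(FPKM + 1), with all genes or with a mean FPKM of at least 1 (0.0306 each), on log2(FPKM + 0.1) (0.0385) and without single libraries (−0.0495 to 0.0336), and for SMAD7 likewise (0.0195, 0.0328 and −0.0847 to 0.0503). With log2(FPKM + 1), log2(FPKM + 0.1) and the limits of 1.5-fold and adjusted p under 0.01, members lower numbered 1, 1 and 1 (3 in edgeR) and higher 1, 1 and 0 (2), pathway genes lower 10, 10 and 8 (23) and higher 4, 4 and 0 (15), TGF-β targets lower 6, 6 and 4 (10), and all genes lower 566, 607 and 267 (2442) and higher 834, 927 and 131 (2396). TGF-β targets higher numbered 0 past the fold limit and 2 without a filter on low counts. With a mean FPKM of at least 1, 1 member was higher, and 14 pathway genes and 987 of all genes were lower. Without single libraries, members lower numbered 3 to 3 and higher 1 to 2, pathway genes lower 20 to 23 and higher 9 to 12, targets lower 8 to 10 and higher 1 to 2, and all genes lower 1965 to 2324 and higher 1809 to 2168. Pathway genes higher numbered 9 without si_GRB2 replicate 3. The causes were not tested. Same-numbered libraries had correlations of deviations of 0.232, −0.0948 and 0.0804, and not every library correlated best with its own number, so the numbers were not taken as pairs. With the replicate block, SMAD3 had −0.68, targets higher numbered 2, and all genes 2417 lower and 2390 higher. With 3 libraries per group and 1034 reads, the interval given for SMAD7 above ran from −0.25 to 0.23 on the log2 scale. The smallest change of SMAD7 that could be detected at this depth was not tested.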
